A study of Mus musculus with 60 samples.

Results

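Public T cell receptor (TCR) alpha clonotypes were selected as the CDR3 amino acid sequences with a frequency above 0 in all 15 libraries of a TCR alpha table, with the CD4 and the CD8 table taken separately. The rule kept 774 of 62533 listed sequences (1.24%) in the CD4 table and 617 of 59365 (1.04%) in the CD8 table. Because 180 sequences were on both lists, 1211 different sequences were kept in all. The lists were chosen on the measured frequencies, so the counts and frequencies that follow from the rule are given as descriptions without a test. The same rule kept 60 of 85775 CDR3 sequences in the CD4 TCR beta table and 189 of 82447 in the CD8 TCR beta table.

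A TCR alpha chain is assembled in the thymus by joining 1 of many TRAV segments to 1 of many TRAJ segments, and the CDR3 is the loop encoded across that joint, which contacts the peptide held by an MHC molecule. Nucleases trim the segment ends and terminal deoxynucleotidyl transferase adds bases that neither segment encodes. An alpha CDR3 with few added bases can be made by many T cells independently, and sequences that recur between individuals are called public. Alpha chains have no D segment, unlike beta chains.

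The data came from an allogeneic hematopoietic cell transplantation (HCT) experiment in mice. The groups differ in the genotype of the transferred CD90.2+ T cells, which was WT, STAT3ko or STAT3koPD-1ko. All donors were C57BL/6 and all hosts were BALB/c mice given lethal irradiation, and every host also got marrow without T cells from WT mice of the donor strain. In the STAT3ko donors CD4-Cre removes the floxed Stat3 gene, so the deletion covers the T cells that have expressed CD4-Cre, and the STAT3koPD-1ko donors also lack PD-1 in the germline. Donor H-2Kb+TCRβ+ cells were sorted into CD4+ and CD8+ cells, and each day 6 library held cells combined from 3 recipients. Each table had 3 libraries of spleen T cells, 1 per genotype, which are titled Naïve and here called before HCT, the term of the paper. It also had 12 day 6 libraries, which were 2 of liver and 2 of gut per genotype. Values are fractions of all TCR reads of a library, given here in percent. The values are fractions and no number of reads was used, so depth was taken as unknown, and a value of 0 means that a sequence was listed at 0. Nothing in the labels says that 2 libraries of a group came from separate donors. The p-values therefore rest on the spread between libraries, as estimated in the fit described below, and not on a spread between donors.

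The 15 libraries of a table were not equally unlike each other. Between 2 libraries, the shared frequency is the sum over all sequences of the lower of the 2 fractions. Each library before HCT shared 47.3% to 56.0% of its frequency with liver replicate 1 of its own genotype in the CD4 table and 45.1% to 57.4% in the CD8 table, against 16.4% to 22.5% and 16.8% to 21.4% with liver replicate 2. Gut replicate 1 also shared more with the liver libraries of its genotype (median 38.7% in CD4 and 41.4% in CD8) than gut replicate 2 did (21.1% and 23.3%). The 3 gut replicate 2 libraries of each table had the lowest share of their reads in the table, 81.6% to 83.5% for CD4 and 79.5% to 80.1% for CD8, against 90.8% or more elsewhere. Leaving the 3 libraries before HCT aside gave 1020 public sequences in the CD4 table and 962 in the CD8 table. Leaving aside the 3 of liver replicate 1 gave 839 and 690, and leaving aside the 3 of gut replicate 2 gave 1196 and 731.

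The sequences that carry the pattern are shown first, as the nucleotide sequence that the table gives for each CDR3, 5′ to 3′. Lower case marks bases that match a TRAV segment from the 5′ end or the named TRAJ segment from the 3′ end, and capitals mark bases outside both matches, or, where the name says overlap, bases inside both. The first 4 are public in the CD4 table and have the TRAJ part joined to the TRAV part with 0 to 2 bases between them.
TRAV14N-3 with TRAJ13, 13 residues: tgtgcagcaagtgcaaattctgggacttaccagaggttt
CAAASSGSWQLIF, TRAV10 with TRAJ22: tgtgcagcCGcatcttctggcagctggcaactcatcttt
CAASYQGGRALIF, TRAV7D-4 with TRAJ15: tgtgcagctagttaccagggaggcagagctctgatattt
CAASDYSNNRLTL, TRAV14N-3 with TRAJ7, overlap: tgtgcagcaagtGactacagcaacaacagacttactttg
The next 6 are public in the CD8 table. They include 5 of the TRAJ22 sequences among its most frequent members, and only the 5′ part changes between them.
first TRAV16N with TRAJ22, 15 residues: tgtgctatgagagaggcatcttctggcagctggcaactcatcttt
second TRAV16N with TRAJ22, 15 residues: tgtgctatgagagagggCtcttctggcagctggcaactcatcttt
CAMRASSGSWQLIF, TRAV16N with TRAJ22: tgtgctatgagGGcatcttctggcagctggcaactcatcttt
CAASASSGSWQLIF, TRAV14D-1 with TRAJ22: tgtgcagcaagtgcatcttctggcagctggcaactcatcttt
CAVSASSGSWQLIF, TRAV3D-3 with TRAJ22: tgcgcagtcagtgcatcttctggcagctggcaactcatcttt
TRAV16N with TRAJ30, 15 residues: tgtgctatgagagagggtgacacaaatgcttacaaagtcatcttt
The last 3 are public in the CD4 table and have 6, 4 and 2 added bases. The first of them had 6, and 4 of the 774 members had 6 or 7. The other 2 return in the tests of tissue.
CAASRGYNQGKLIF, TRAV14N-3 with TRAJ23: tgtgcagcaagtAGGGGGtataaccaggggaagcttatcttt
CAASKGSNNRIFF, TRAV10D with TRAJ31: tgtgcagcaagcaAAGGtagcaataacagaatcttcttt
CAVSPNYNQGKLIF, TRAV3D-3 with TRAJ23: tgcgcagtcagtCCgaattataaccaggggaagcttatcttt

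Added bases were few in the public sequences. The median number outside both germline matches was 1 in each list, against 3 over all listed sequences of each table. In the CD4 list 251 of 774 (32.4%) had none, against 6.39% of all listed, and 63 (8.14%) had 4 or more, against 48.4%. In the CD8 list 268 of 617 (43.4%) had none, against 6.83%, and 40 (6.48%) had 4 or more, against 46.9%. The mean was 1.45 ± 1.37 bases (SD, n = 774) in CD4 and 1.16 ± 1.31 (SD, n = 617) in CD8, and no public sequence had more than 7. The rule did not use the nucleotide sequence, but sequences are not replicates of a condition, and no test is given.

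The share without added bases went up with the number of libraries that listed a sequence. In the CD4 table it was 3.26% of the 23993 sequences listed in 2 libraries, 11.4% of the 1493 listed in 8, 24.0% of the 655 listed in 14 and 32.4% of those listed in 15. The CD8 table gave 3.54%, 15.2%, 32.2% and 43.4%. The share with 4 or more added bases went the other way, from 61.2% at 2 libraries to 8.14% at 15 in CD4 and from 59.9% to 6.48% in CD8. Each table row shows 1 nucleotide sequence for its CDR3 even where several could encode it, so these values describe the sequence shown.

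**Figure D1:**
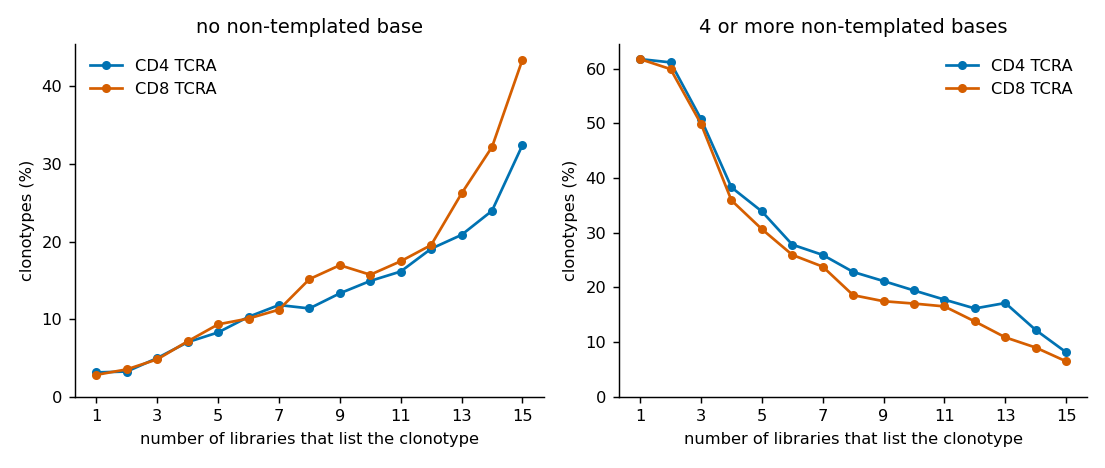
Share of CDR3 sequences (percent, vertical axes) with no base (left) or with 4 or more bases (right) outside the germline matches, against the number of libraries that list the sequence, for the CD4 (blue) and CD8 (orange) TCR alpha tables. From 2 to 15 libraries the left share goes from 3.26% to 32.4% in CD4 and from 3.54% to 43.4% in CD8, and the right share drops from 61.2% to 8.14% and from 59.9% to 6.48%.

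The public CDR3s were also shorter. The median length, counted from the first cysteine to the last residue, was 13 residues in both lists and 14 over all listed sequences of both tables. The CD4 list averaged 13.1 ± 0.922 residues (SD, n = 774) with a range of 10 to 16, and 64.6% had 13 or fewer, against 42.6% of all listed. The CD8 list averaged 13.4 ± 1.37 residues (SD, n = 617) with a range of 10 to 17, and 50.9% had 13 or fewer, against 40.1%. A CDR3 of 13 residues was the most common in CD4, with 325 members, and one of 14 residues in CD8, with 175. At 15 residues the CD8 list held 86 members (13.9%) and the CD4 list 37 (4.78%), although 15-residue sequences were 19.5% and 18.3% of all listed.

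The difference in added bases was also present among sequences of equal length. Among 13-residue CDR3s 29.5% of the public and 6.37% of all listed CD4 sequences had no added base, and in CD8 these were 45.3% and 7.68%. Among 15-residue CDR3s the values were 21.6% and 2.72% in CD4, and 33.7% and 2.83% in CD8. The TRAJ match covered a median of 69.0% of the CDR3 bases of the CD4 list and 66.7% of the CD8 list, against 63.9% and 62.7% of all listed.

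**Figure D2:**
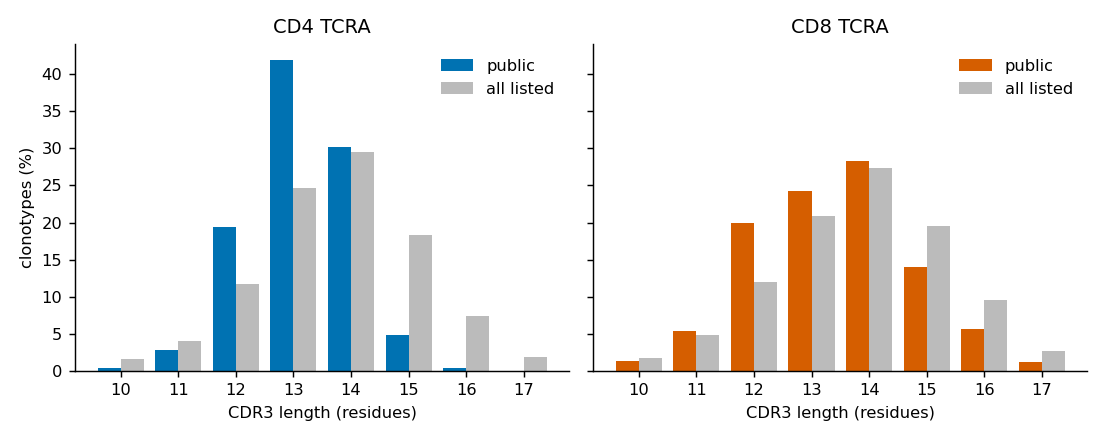
Distribution of CDR3 length (residues, horizontal axis) as percent of sequences (vertical axis) for the public sequences (coloured bars) and all listed sequences (grey bars) of the CD4 (left) and CD8 (right) TCR alpha tables. The CD4 list peaks at 13 residues with 42.0% of its members, and 15 residues are 13.9% of the CD8 list but 4.78% of the CD4 list.

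The TRAJ segments lie on mouse chromosome 14 (GRCm38, the mm10 build), at chr14:54155005-54218842, after the TRAV segments at chr14:52427928-53977678. TRAJ31 (chr14:54187895-54187951, + strand) was the most used in the CD4 list, with 78 of 774 members (10.1%) against 5.08% of all listed. TRAJ37 followed with 48 members, TRAJ23 with 47, TRAJ22 with 36 and TRAJ27 with 35. In the CD8 list TRAJ22 (chr14:54197248-54197307, + strand) led with 79 of 617 members (12.8%) against 4.80% of all listed. It was followed by TRAJ30 with 46, TRAJ26 with 45, TRAJ23 with 41 and TRAJ12 with 36. The CD8 list drew less on the TRAJ segments of the 5′ part of the array (those before its midpoint), nearest to TRAV, which a first rearrangement tends to use. These gave 31.1% of the CD8 list against 45.2% of all listed, and 42.1% of the CD4 list against 48.2%.

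**Figure D3:**
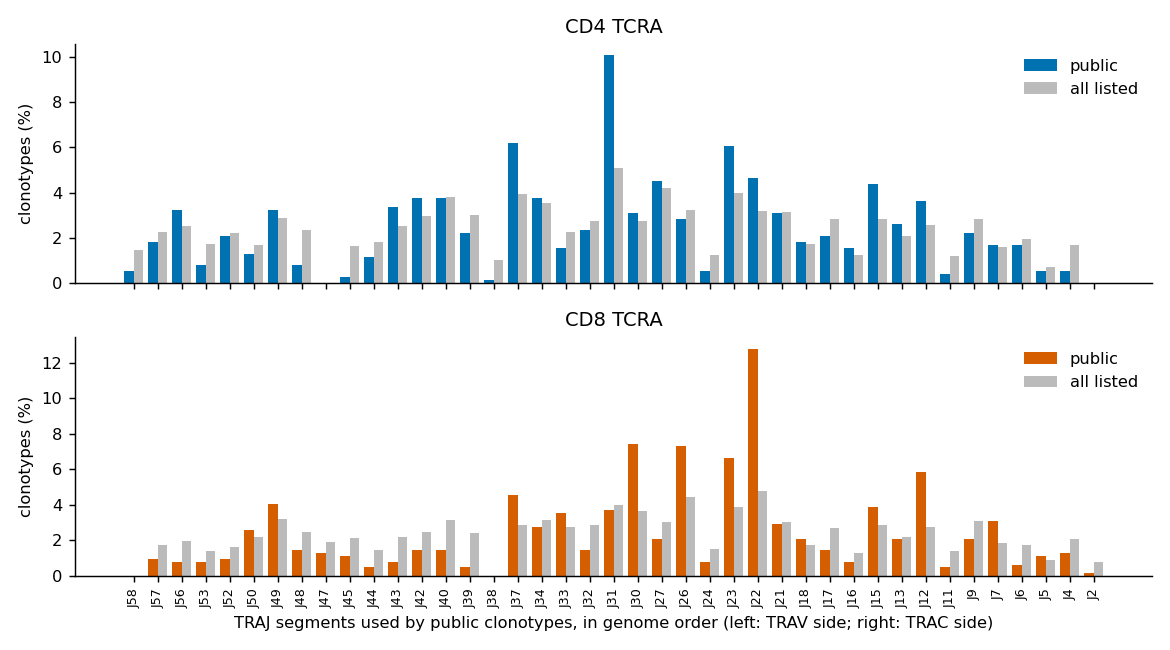
Percent of public (coloured bars) and of all listed (grey bars) sequences that use each TRAJ segment, in genome order from the TRAV side at the left to the TRAC side at the right, for the CD4 (upper) and CD8 (lower) tables. TRAJ31 stands out in CD4 with 10.1% and TRAJ22 in CD8 with 12.8% of public sequences.

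TRAV use separated the lists further, within the limit that many TRAV segments of C57BL/6 mice exist in near-identical copies (named with D and N), which share reads, so families are given beside single segments. Each row also carries the TRAV label of 1 representative, so family counts are those of the labels shown. Both tables named the same TRAV family for 40.3% of the CD4 list members that were found in CD8. They did so for 60.8% of the CD8 list members found in CD4, and for 57.5% of all sequences found in both. The CD8 list was thus near the share of all sequences, and the CD4 list was below it. In the CD4 list the most used segments were TRAV7D-2 (chr14:52683964-52684472) with 80 members, TRAV14N-3 (chr14:53370077-53370575) with 65, TRAV7-5 with 56, TRAV14D-2 with 48 and TRAV10 with 38. By family, TRAV7 gave 206 members (26.6%, against 16.8% of all listed) and TRAV14 gave 197 (25.5%, against 10.8%). In the CD8 list TRAV16N (chr14:53351028-53351621) alone gave 182 of 617 members (29.5%, against 12.7% of all listed), followed by TRAV12N-3 (chr14:53240745-53241244) with 76, TRAV7-5 with 25, and TRAV3D-3 and TRAV12-2 with 24 each. TRAV16N was named for only 7 members of the CD4 list, and TRAV14N-3 for 2 of the CD8 list. The first residues are part of the CDR3 itself and do not rest on the label: 478 members of the CD4 list (61.8%, against 29.98% of all listed) began with CAA, and 181 of the CD8 list (29.3%, against 16.3%) began with CAM. CAL began 178 of the CD8 list (28.8%), near its share of all listed (27.5%). The most common pair of segments in the CD8 list was TRAV16N with TRAJ23, with 16 members, and TRAV16N with TRAJ22 had 15. No pair had more than 9 members in the CD4 list, where 474 different pairs were used.

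Most public sequences had a close relative on the same list. In the CD4 list 696 of 774 (89.9%) differed from another member of equal length by 1 residue, with a median of 3 such neighbours and at most 19. In the CD8 list 495 of 617 (80.2%) did, with a median of 2 and at most 10. The neighbours used the same TRAJ segment in 99.4% of 1260 pairs in CD4 and in 99.8% of 654 pairs in CD8. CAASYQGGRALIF had the most neighbours in CD4 and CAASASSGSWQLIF, shown above, had the most in CD8. Neighbours were not counted over all listed sequences, so a close relative is not shown to be particular to the public lists. Sequences of equal length that differ by 1 residue mostly share the part encoded by TRAJ, so a common TRAJ segment is nearly given.

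The frequencies were then summed over each list, first as a share of all reads. The 774 CD4 sequences summed to 20.96% ± 1.16 of all reads (SD, n = 15 libraries), with a lowest value of 19.2% in STAT3ko liver replicate 2 and a highest of 23.8% in STAT3koPD-1ko gut replicate 2. By tissue the sums were 20.8% ± 1.07 before HCT (n = 3), 20.5% ± 0.868 in liver (n = 6) and 21.5% ± 1.37 in gut (n = 6). The tissue ranges overlapped, at 20.1% to 22.1%, 19.2% to 21.7% and 20.4% to 23.8%. By genotype on day 6 the sums were 20.6% ± 0.319 in WT, 21.05% ± 1.43 in STAT3ko and 21.3% ± 1.76 in STAT3koPD-1ko (n = 4 each), which overlapped as well.

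The 617 CD8 sequences summed to 18.6% ± 1.11 (SD, n = 15 libraries), from 16.7% in STAT3ko gut replicate 2 to 21.6% in the WT library before HCT. The sums were 19.8% ± 1.65 before HCT (n = 3), 18.8% ± 0.504 in liver (n = 6) and 17.9% ± 0.777 in gut (n = 6), with ranges of 18.5% to 21.6%, 18.4% to 19.8% and 16.7% to 18.7%. By genotype on day 6 they were 18.7% ± 0.802 in WT, 18.1% ± 0.927 in STAT3ko and 18.3% ± 0.775 in STAT3koPD-1ko (n = 4 each). The sums were also taken as a share of the listed reads only, which changed the order of the tissue means in CD8 and not in CD4. On this scale the CD4 sums were 21.3% ± 1.46 before HCT, 21.2% ± 0.917 in liver and 24.5% ± 2.83 in gut, and ran from 19.9% to 28.6% over the 15 libraries. The 3 gut replicate 2 libraries, with the lowest listed share, were at 25.2% to 28.6% and those of gut replicate 1 at 22.0% to 22.4%. In CD8 gut turned from the lowest mean to the highest, with 20.1% ± 1.55 before HCT, 19.4% ± 0.459 in liver and 20.6% ± 1.66 in gut, and the tissue ranges overlapped. Gut replicate 1 averaged 19.4% and gut replicate 2 averaged 21.8%. The public sequences were 2.78% to 11.5% of the different sequences listed in a CD4 library and 2.58% to 7.26% in a CD8 library, a share set by how many sequences a library listed, from 6748 to 27874 in CD4 and from 8501 to 23961 in CD8. The median public sequence was 3.48 to 13.04 times as frequent as the median of the other sequences listed in the same CD4 library, and 5.46 to 14.2 times in CD8.

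**Figure D4:**
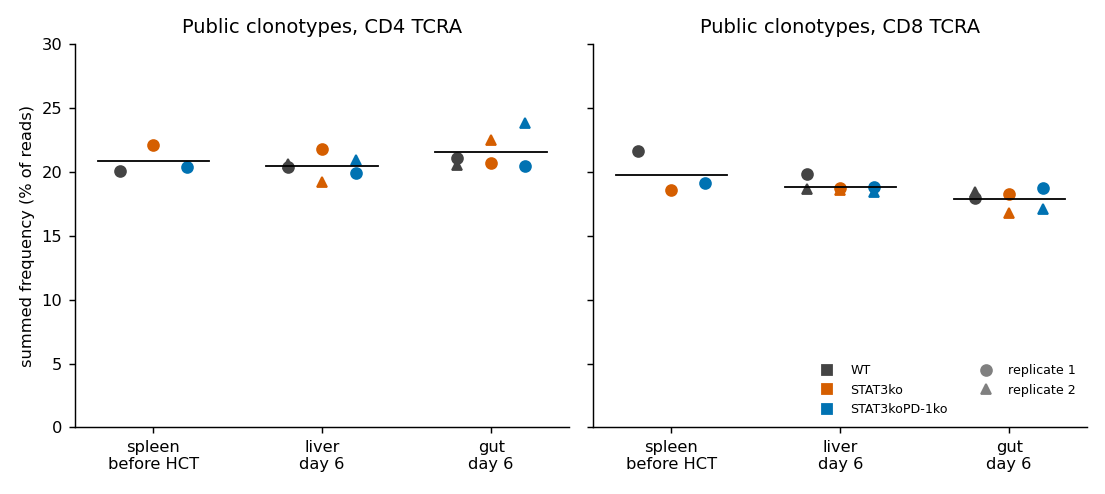
Summed frequency of the public sequences (percent of all TCR reads, vertical axis) in each library by tissue, for the CD4 (left) and CD8 (right) tables. Colours mark donor genotype, circles replicate 1, triangles replicate 2 and lines the mean of a tissue. CD4 libraries sit between 19.2% and 23.8% and CD8 libraries between 16.7% and 21.6%.

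Single members varied far more between libraries than their sum. The ratio of a member's highest to its lowest library value had a median of 35.6 in CD4 (range 2.36 to 2020) and 34.7 in CD8 (range 2.20 to 2262). The steadiest CD4 member was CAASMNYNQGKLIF, which stayed between 0.0411% and 0.0972% with a coefficient of variation of 26.5% over 15 libraries. The steadiest CD8 member was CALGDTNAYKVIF, between 0.0765% and 0.169% with a coefficient of variation of 23.9%. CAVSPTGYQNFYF, from 0.000279% to 0.182% in CD4, had the highest coefficient of variation of that list, 290%. These 3 were chosen after their values were seen. Across the 774 CD4 members, log2 frequencies in 2 libraries correlated with Pearson's r of 0.70 to 0.72 between a library before HCT and liver replicate 1 of its genotype, and of 0.21 to 0.41 between libraries before HCT of different genotypes. In CD8, over 617 members, the values were 0.62 to 0.78 and 0.22 to 0.28. These are correlations across sequences of shared libraries and carry no test.

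The most frequent members were still rare, with the 10 of highest mean frequency summing to 1.33% to 2.18% of a CD4 library and 1.28% to 2.48% of a CD8 library. The 13-residue CDR3 joined from TRAV14N-3 and TRAJ13 without an added base, shown above, led the CD4 list with a mean of 0.249%. It was at 0.208%, 0.310% and 0.0681% in the WT, STAT3ko and STAT3koPD-1ko libraries before HCT, ran from 0.115% to 0.436% in the 6 liver libraries with a median of 0.2002%, and from 0.167% to 0.659% in the 6 gut libraries with a median of 0.237%. The 3 tissues overlapped, and STAT3ko gut replicate 2 was the highest. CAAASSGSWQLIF (mean 0.234%) was at 0.309%, 0.486% and 0.358% before HCT, 0.0868% to 0.449% in liver (median 0.194%) and 0.119% to 0.2002% in gut (median 0.176%). Its 3 libraries before HCT were all above the 6 of gut and overlapped with those of liver. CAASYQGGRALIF (mean 0.226%) was at 0.534%, 0.281% and 0.0617% before HCT, 0.0380% to 0.301% in liver (median 0.229%) and 0.146% to 0.412% in gut (median 0.187%), and the tissues overlapped. The other 7 of the 10 were CAASDYSNNRLTL, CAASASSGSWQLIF, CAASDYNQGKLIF, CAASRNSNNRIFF and 3 named by their segments, TRAV7-4 with TRAJ27, TRAV14D-2 with TRAJ27 and TRAV14D-2 with TRAJ12, with means from 0.190% down to 0.119%.

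In the CD8 list the 15-residue CDR3 shown above as the first of TRAV16N with TRAJ22 led with a mean of 0.380%. It was at 0.536%, 0.535% and 0.387% in the WT, STAT3ko and STAT3koPD-1ko libraries before HCT, 0.267% to 0.666% in liver (median 0.357%) and 0.165% to 0.462% in gut (median 0.322%). The second CDR3 of the same segments (mean 0.306%) was at 0.122%, 0.5263% and 0.619% before HCT, 0.240% to 0.454% in liver (median 0.307%) and 0.145% to 0.324% in gut (median 0.217%). The groups overlapped for both. For the second, that overlap rested on the WT library before HCT, and the other two libraries before HCT were above all liver and gut libraries. Without the WT library its log2 difference of gut to before HCT was -1.38 ± 0.25 (SE, adjusted p = 0.000323, limma), against -0.65 with all libraries (adjusted p = 0.249). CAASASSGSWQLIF, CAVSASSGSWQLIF and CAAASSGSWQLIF, all with TRAJ22, followed with means of 0.170%, 0.170% and 0.169%, and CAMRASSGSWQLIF, a TRAV16N and TRAJ22 sequence of 14 residues, had 0.149%. The other 4 were 3 TRAV16N sequences with TRAJ30, TRAJ32 and TRAJ23 and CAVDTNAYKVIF of TRAV3D-3 with TRAJ30, with means from 0.145% to 0.133%.

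At the edge of the rule the members just inside were listed at the lowest value of a library. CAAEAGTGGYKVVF, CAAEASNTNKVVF and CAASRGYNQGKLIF were at 0.000173% in STAT3koPD-1ko gut replicate 2 of the CD4 table, and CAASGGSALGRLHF, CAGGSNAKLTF and CALTDYSNNRLTL at 0.00019% in STAT3ko gut replicate 2 of the CD8 table. Just outside, 655 CD4 and 522 CD8 sequences were listed in 14 libraries. The most frequent of these in CD4 were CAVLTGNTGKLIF, listed at 0 in the STAT3ko library before HCT, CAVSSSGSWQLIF, at 0 in STAT3ko liver replicate 1, and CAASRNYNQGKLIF, at 0 in the WT library before HCT. In CD8 they were 3 TRAV16N sequences, with TRAJ40, listed at 0 in the STAT3ko library before HCT, and with TRAJ50 and TRAJ48 (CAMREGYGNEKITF), both at 0 in the WT library before HCT. Of the 655 CD4 sequences, 148 were at 0 in STAT3ko gut replicate 2, 139 in STAT3koPD-1ko gut replicate 2 and 136 in the STAT3koPD-1ko library before HCT, the 3 libraries that listed the fewest sequences. The lowest listed values of these 2 gut libraries, 0.000176% and 0.000173%, were also the lowest of the 15 CD4 libraries. Of the 522 CD8 sequences, 130, 81 and 66 were at 0 in the WT, STAT3ko and STAT3koPD-1ko libraries before HCT.

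By the same CDR3, TRAV and TRAJ, 30 clonotypes were public in both tables, 3.88% of the CD4 and 4.86% of the CD8 list. By the CDR3 amino acid sequence alone there were 180, 23.3% of the CD4 and 29.2% of the CD8 list. The tables were joined by amino acid sequence, with no sequence repeated in a table, and each row shows the segments and nucleotides of 1 representative. All 180 had the same TRAJ in both tables, 71 the same TRAV family, 30 the same TRAV and 43 the same nucleotide sequence. Over all 25521 sequences found in both tables, 99.9% had the same TRAJ, 57.5% the same TRAV family and 29.9% the same TRAV. The common TRAJ is thus not particular to the 180. TRAJ22 was the most common, with 23 of the 180, then TRAJ12 with 14. No base was added in 46.1% of the 180 by the CD4 row and 48.9% by the CD8 row.

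The shared sequences were not at the same level in CD4 and CD8 cells. The mean frequency was higher in CD4 for 93 and in CD8 for 87, 76 differed by more than 2-fold (a log2 difference over 1), and Pearson's r of the log means was 0.291 (Spearman's rho 0.244) across the 180 sequences. The CDR3 of the second TRAV16N with TRAJ22 sequence was at 0.306% in CD8 and 0.00799% in CD4, the lowest log2 ratio of CD4 to CD8 (-5.26). The bases shown above are those of its CD8 row, with 1 added base. Its CD4 row shows another nucleotide sequence, with 0 added bases. The CD4 mean of this CDR3 rested on STAT3ko gut replicate 2, at 0.0821%, with the other 14 CD4 libraries at 0.00889% or less. Without that library the CD4 mean was 0.00270% and the log2 ratio -6.83. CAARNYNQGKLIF (TRAJ23, with TRAV14N-3 in the CD4 row and TRAV10D in the CD8 row) was at 0.0672% in CD4 and 0.00670% in CD8, the highest (3.33). Of the 5 most frequent clonotypes shared by CDR3, TRAV and TRAJ, the second TRAV16N with TRAJ22 sequence led. A 14-residue TRAV19 with TRAJ56 sequence had means of 0.0583% in CD4 and 0.0268% in CD8, and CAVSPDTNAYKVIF (TRAV7D-5 with TRAJ30) had 0.0230% and 0.0508%. A 15-residue TRAV16N with TRAJ12 sequence had 0.0260% and 0.0510%, and a 15-residue TRAV6N-7 with TRAJ18 sequence had 0.0362% and 0.0397%.

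Each list could be read in the libraries of the other cell type, which took no part in choosing it. Of the 774 CD4 public sequences, 770 (99.5%) were listed in the CD8 table, in a median of 12 of its 15 libraries, against 40.8% and a median of 0 over all listed CD4 sequences. Of the 617 CD8 public sequences, 612 (99.2%) were listed in the CD4 table, in a median of 13 libraries, against 43.0% and 0. Sequences just outside the rule, listed in 14 libraries, were close to this, with 98.2% (median of 10 libraries) for CD4 and 96.9% (median of 11) for CD8, and for those listed in 8 to 14 libraries the shares were 89.7% and 89.9%. The CD4 list summed to 9.95% ± 0.666 of the CD8 libraries (SD, n = 15) and the CD8 list to 9.42% ± 0.650 of the CD4 libraries, each less than in its own table. In the CD8 libraries the CD4 list summed to 9.84% ± 0.533 before HCT (n = 3), 9.50% ± 0.363 in liver (n = 6) and 10.5% ± 0.664 in gut (n = 6). In the CD4 libraries the CD8 list summed to 9.53% ± 0.760, 9.42% ± 0.773 and 9.37% ± 0.586, with gut the lowest mean, and in both lookups the ranges overlapped. Whether the same cells, separate cells or sorting carry a sequence in both tables was not tested.

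No public sequence carried the segment labels and CDR3 length of the invariant chains that mark NKT or MAIT cells, a search limited by the 1 TRAV label per row. Invariant NKT cells use TRAV11 with TRAJ18 and MAIT cells use TRAV1 with TRAJ33, each with a CDR3 of fixed length. The NKT sequence with the most libraries, a 15-residue TRAV11 with TRAJ18 joint (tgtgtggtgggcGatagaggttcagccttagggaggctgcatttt, the capital marking a base inside both matches), was listed in 12 of 15 CD4 and 8 of 15 CD8 libraries. These bases are those of the CD4 row, and the CD8 row of the same CDR3 shows another nucleotide sequence, with 1 added base. In the CD4 libraries this CDR3 was highest in WT liver replicate 1 at 0.0328% and STAT3ko liver replicate 1 at 0.0265%. It was listed at 0 in 3 CD4 libraries, the STAT3koPD-1ko one before HCT and WT and STAT3koPD-1ko gut replicate 2. The MAIT sequence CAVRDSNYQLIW was listed in 10 of 15 CD8 libraries, at 0.0295% or less, and in no library before HCT. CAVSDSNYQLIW, also of TRAJ33 and 12 residues and named after its values were seen, was public in both tables, labelled TRAV7-6 in CD4 and TRAV3D-3 in CD8.

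The frequency of each public sequence was then compared between tissues and genotypes. Every sequence listed in at least 8 libraries entered limma on log2(fraction + 1e-06), with 7304 tested in CD4 and 6609 in CD8 and Benjamini-Hochberg adjustment over all tested. All 774 and 617 members entered, and each had passed the filter by the rule that chose it. A fold change on this scale understates that of a rare sequence. The libraries before HCT were 1 per genotype, so their spread was taken to be like that of the other groups. The fit took the spread from a trend over all tested sequences by mean frequency. With all libraries, the spread of a single sequence weighed little in its own p-value.

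Between gut and liver on day 6, 1 of 774 CD4 members had an adjusted p under 0.05, against 1 of 7304 tested (0.0137%), and 31 (4.01%) had an unadjusted p under 0.05, against 3.26% of all tested. In CD8 the counts were 0 of 617 members, against 0 of 6609 (0%), and 27 (4.38%) unadjusted, against 3.45%. The median log2 difference was 0.21 over the CD4 and 0.12 over the CD8 members, beside 0.04 and 0.42 over all tested.

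Between gut and the spleen libraries before HCT, 3 of 774 CD4 members were called, against 8 of 7304 (0.11%), all of them higher in gut, and 100 (12.9%) had an unadjusted p under 0.05, against 9.08%. In CD8, 1 of 617 members was called, against 5 of 6609 (0.0757%), and 74 (11.99%) had an unadjusted p under 0.05, against 14.6%. The median log2 difference was 0.63 in CD4 and 0.47 in CD8 members, beside 0.72 and 1.24 over all tested. Between liver and before HCT no member was called in either table, as for all tested (0% in both), and 50 (6.46%) and 39 (6.32%) members had an unadjusted p under 0.05, against 3.9% and 5.55%. The contrasts with before HCT share the same 3 libraries. Each of the 3 shared more with liver replicate 1 of its own genotype than with any other liver library.

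In the 2 genotype contrasts tested on day 6, no public sequence was called by limma with all libraries. STAT3koPD-1ko against WT was not tested. For STAT3ko against WT, 0 of 774 CD4 members were called beside 0.0137% of all tested, and 40 (5.17%) had an unadjusted p under 0.05 beside 7.42%. In CD8, 0 of 617 were called beside 0.0454%, and 56 (9.08%) had an unadjusted p under 0.05 beside 10.7%. For STAT3koPD-1ko against STAT3ko no member of either list was called, nor any other sequence (0% in both). Unadjusted p-values under 0.05 were found for 55 CD4 members (7.11%) beside 9.27%, and for 36 CD8 members (5.83%) beside 9.12%. The 2 genotype contrasts share the STAT3ko libraries. The lowest adjusted p was 0.0625, for the TRAV14N-3 with TRAJ13 sequence in CD4, with a log2 difference of -1.04 ± 0.25 (SE, limma) of STAT3koPD-1ko to STAT3ko. Its adjusted p was 0.00345 without STAT3ko liver replicate 2, 0.00905 without STAT3koPD-1ko liver replicate 2 and 0.00889 without STAT3ko gut replicate 1. In CD8 leaving out 1 library also gave calls. The first TRAV16N with TRAJ22 sequence had a log2 difference of STAT3koPD-1ko to STAT3ko of -0.92 ± 0.20 (SE, adjusted p = 0.0341, limma) without STAT3koPD-1ko gut replicate 2, against -0.66 with all libraries (adjusted p = 0.163). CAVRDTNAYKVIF (TRAV7N-6 with TRAJ30), named after its values were seen, had a difference of STAT3ko to WT of 2.08 ± 0.49 (SE, adjusted p = 0.0499, limma) without STAT3ko gut replicate 2, against 1.62 with all libraries (adjusted p = 0.232).

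CAASDYSNNRLTL (TRAV14N-3 with TRAJ7 in the CD4 table, no added base) was the sequence called in both gut contrasts. Before HCT it was at 0.0859% in WT, 0.0605% in STAT3ko and 0.0609% in STAT3koPD-1ko. In liver it was at 0.160%, 0.168% and 0.0573% in replicate 1 of these genotypes and at 0.161%, 0.156% and 0.0864% in replicate 2. In gut it was at 0.443%, 0.299% and 0.210% in replicate 1 and at 0.287%, 0.334% and 0.278% in replicate 2. All 6 gut libraries were above all liver libraries and all libraries before HCT. Its log2 difference was 1.30 ± 0.23 (SE, adjusted p = 7.88e-05, limma) for gut against liver and 2.14 ± 0.37 (adjusted p = 6.66e-05, limma) for gut against before HCT. Without the 3 gut replicate 2 libraries the differences were 1.31 and 2.15 with adjusted p of 0.4996 and 0.0830, and with every listed sequence tested the adjusted p for gut against liver was 0.414. In the CD8 table, where the sequence was also public, it was at 0.00206% to 0.150% before HCT, 0.000537% to 0.0568% in liver and 0.00312% to 0.0344% in gut, which overlapped, and the log2 difference of gut to liver was 0.63 ± 1.01 (adjusted p = 1.00, limma).

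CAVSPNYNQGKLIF (TRAV3D-3 with TRAJ23, 2 added bases) was called for gut against before HCT in CD4. It was at 0.00103%, 0.0212% and 0.00828% in the WT, STAT3ko and STAT3koPD-1ko libraries before HCT, 0.00774% to 0.0597% in liver (median 0.0253%), and 0.0287% to 0.145% in gut (median 0.110%). The gut libraries were above those before HCT and overlapped with liver. The log2 difference was 3.78 ± 0.80 (SE, adjusted p = 0.00782, limma), and without the WT library before HCT it was 2.98 with an adjusted p of 0.166. Without WT gut replicate 2 it was 3.41 with an adjusted p of 0.156, and without all 3 gut replicate 2 libraries it was 3.14 with an adjusted p of 0.339. In the CD8 table it was at 0.000516% to 0.0109% before HCT and 0.0157% to 0.0280% in gut, a log2 difference of 3.14 ± 1.23 that did not pass (adjusted p = 0.248, limma).

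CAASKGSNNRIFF (TRAV10D with TRAJ31, 4 added bases) was the remaining CD4 call. It was at 0.0363%, 0.0164% and 0.00107% before HCT in WT, STAT3ko and STAT3koPD-1ko, 0.0214% to 0.102% in liver (median 0.0331%) and 0.0428% to 0.118% in gut (median 0.0757%). All gut libraries were above those before HCT and overlapped with liver. The log2 difference of gut to before HCT was 3.07 ± 0.72 (SE, adjusted p = 0.0277, limma). Without the STAT3koPD-1ko library before HCT it was 1.34 with an adjusted p of 0.851. Without any 1 of the 6 gut libraries the adjusted p was 0.0632 to 0.156, with differences of 2.93 to 3.21. It was 0.122 with a pseudocount of 1e-05, 0.0649 with every listed sequence tested and 0.0762 with a minimum of 12 libraries. It was not public in CD8, where 5 of 15 libraries listed it.

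The CDR3 that led the CD4 list, of TRAV14N-3 with TRAJ13, was the 1 call in the CD8 list, where the table gives TRAV7-4 with TRAJ13. In the CD8 libraries it was at 0.00157%, 0.00345% and 0.0289% before HCT in WT, STAT3ko and STAT3koPD-1ko, 0.00832% to 0.0822% in liver (median 0.0302%) and 0.0421% to 0.103% in gut (median 0.0667%). All gut libraries were above those before HCT and overlapped with liver. The log2 difference of gut to before HCT was 3.55 ± 0.82 (SE, adjusted p = 0.0208, limma), and without the WT library before HCT it was 2.72 with an adjusted p of 0.255. The adjusted p was 0.0722 without the STAT3ko library before HCT. It was 0.138, 0.135 and 0.105 without gut replicate 1 of WT, STAT3ko and STAT3koPD-1ko. Without gut replicate 2 of WT and STAT3ko it was 0.158 and 0.0992, and without all 3 gut replicate 2 libraries 0.292. It was 0.159 with a pseudocount of 1e-05, 0.158 with every listed sequence tested and 0.0561 with a minimum of 12 libraries. In the CD4 libraries the same difference was 0.64 ± 0.32 (adjusted p = 0.543, limma), and the difference between the tables was not tested.

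**Figure D5:**
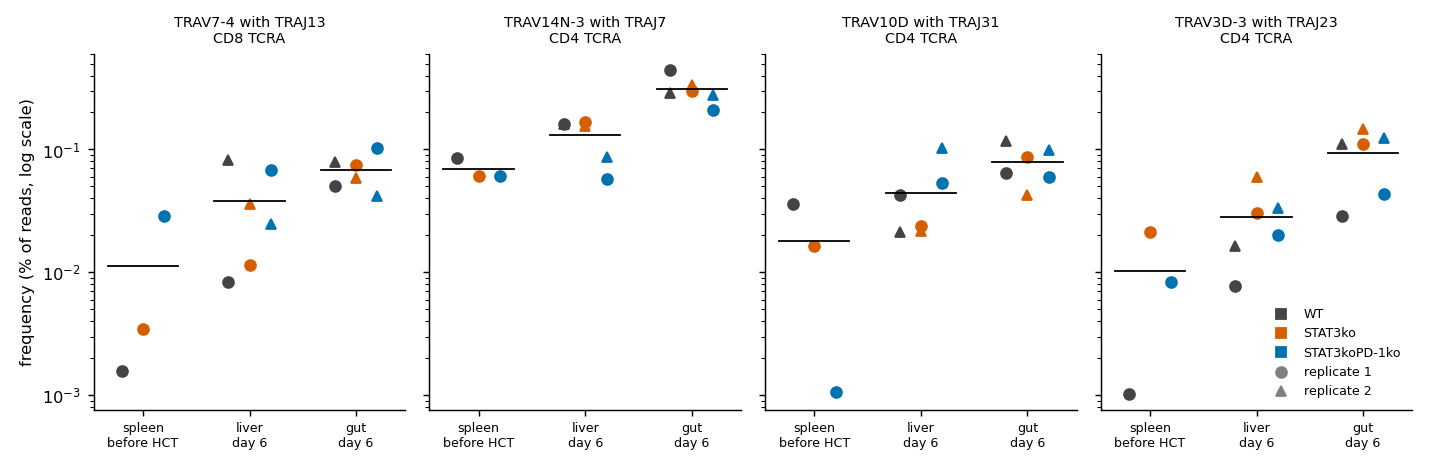
Frequency (percent of TCR reads, log scale) in each of 15 libraries of the 4 public sequences with an adjusted p under 0.05 in a tissue contrast, named by segments and table. Colours mark genotype, circles replicate 1, triangles replicate 2 and lines the arithmetic mean of a tissue. For TRAV14N-3 with TRAJ7 all 6 gut libraries (0.210% to 0.443%) lie above the 6 liver libraries (0.0573% to 0.168%), and for TRAV10D with TRAJ31 and TRAV3D-3 with TRAJ23 1 library before HCT lies far below the other two.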

How the data were processed

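TCR alpha and beta transcripts of sorted CD4+ and CD8+ donor T cells were sequenced in 60 libraries, 15 per table. The authors assigned reads to clonotypes with MiXCR and joined libraries by CDR3 amino acid sequence with VDJtools, and the labels name the mm10 build. The deposited values are fractions of a library's reads, and the authors' tables also hold segment end positions and an occurrence count over 18 libraries, of which 15 have a column. Depth was unknown, so no counting interval is given. The members and lists were chosen with earlier results of these data known. Each representative CDR3 nucleotide sequence was matched from its 5′ end to any TRAV and from its 3′ end to the named TRAJ of GENCODE M21 (GRCm38). The test was limma (version 3.58.1, under R 4.3.3) applied to log2(fraction + 1e-06) with an intensity trend, for sequences listed in at least 8 libraries, at an adjusted p of 0.05. Tissue was fitted with genotype, and genotype with tissue, and the code was tested on simulated data. Alternatives were another pseudocount, other filters, division by the listed fraction, a replicate block and leaving libraries out. Named sequences were, per table, the 10 of highest mean, the 3 just inside and outside the rule, the called ones (up to 3 in each direction), the 5 most frequent in both tables and the 5 most used segments. CDR3s of 15 or more residues are named by segments. The methods state 2 batches of 3 pooled mice, and which library belongs to which batch is not given in the sources used here.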

Additional observations from a re-analysis of the deposited data

Results flagged for a closer look

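In 8 of 50 groups of 6 libraries checked, 1 library stood apart from the other 5 by Dixon's test, always at the high end. The test was applied to percentages without a log scale. Most sequences checked were chosen for a high mean over these same libraries, so the usual chance rate of about 1 in 20 does not apply. In the CD4 gut libraries, STAT3ko replicate 2 had 0.659% of the TRAV14N-3 with TRAJ13 sequence against 0.266% in the next library, and 0.412% of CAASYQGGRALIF against 0.217%. STAT3koPD-1ko gut replicate 2 had 0.240% of the TRAV7-4 with TRAJ27 sequence against 0.127%. In the CD8 liver libraries, WT replicate 1 had the highest summed frequency of public sequences, 19.8% against 18.8%, and 0.569% of the TRAV16N with TRAJ30 sequence against 0.187%. The TRAV16N with TRAJ23 sequence was at 0.268% in STAT3ko liver replicate 2 against 0.140% in the next liver library, and at 0.298% in STAT3koPD-1ko gut replicate 1 against 0.124% in the next gut library. WT gut replicate 1 had 0.315% of the TRAV16N with TRAJ32 sequence against 0.149%. The causes were not tested.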

How the results depend on the processing

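A rule of at least 14 of 15 libraries gave 1429 CD4 and 1139 CD8 public sequences with summed frequencies of 28.7% and 25.4%, and 72 shared by CDR3, TRAV and TRAJ. A frequency of at least 1e-05 in all libraries kept 487 in CD4. With groups of 3 libraries left aside, chosen after seeing the data, the count was 1196 in CD4 without gut replicate 2 and 962 in CD8 without the libraries before HCT. Leaving out 1 library gave 776 to 922 and 618 to 747 public sequences, and sums of 20.96% to 22.9% and 18.7% to 20.4%. Divided by the listed fraction the sums were 22.5% and 20.0%, and the CD8 gut mean went from the lowest of the tissues to the highest. With TRAV free, 180 were shared, by CDR3 alone or with TRAJ.

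In CD4, gut against liver called 0 members with no filter and 0 without the 3 gut replicate 2 libraries, which also left 0 for gut against before HCT. The CD4 count for gut against before HCT was 2 with a pseudocount of 1e-05, with no filter and with a minimum of 12 libraries, each losing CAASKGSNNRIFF. In CD8, gut against before HCT called 0 with a pseudocount of 1e-05, with no filter, with a minimum of 12 libraries and without the 3 gut replicate 2 libraries. Leaving out 1 library gave 1 to 4 calls for gut against before HCT in CD4, with 1 without WT gut replicate 2, and 0 to 3 in CD8. In CD8 these were 1 without the WT library before HCT, which was the second TRAV16N with TRAJ22 sequence, 2 without the STAT3ko and 3 without the STAT3koPD-1ko library before HCT, and 0 without gut replicate 1 of any genotype or gut replicate 2 of WT or STAT3ko. It gave 1 to 1 for gut against liver in CD4 and 0 to 0 in CD8, 0 to 0 for liver against before HCT in both, and 0 to 1 for STAT3koPD-1ko against STAT3ko in both. STAT3ko against WT had 0 to 0 in CD4 and 0 to 1 in CD8. The causes were not tested.

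With the replicate number as a block, gut against liver called 1 CD4 and 0 CD8 members, gut against before HCT 3 and 1, and the other contrasts 0, as without it. Deviations of same-numbered liver and gut libraries of a genotype correlated by -0.0102 to 0.0762, against -0.0191 to 0.0185 between different genotypes. WT, at 0.0723 in CD4 and 0.0762 in CD8, and STAT3koPD-1ko, at 0.0336 in CD4, lay above that range, and the others lay within it. The values were small, and the numbers were not shown to pair liver with gut libraries in every genotype. Each library before HCT was closest to liver replicate 1 of its genotype, as given above. Depth was taken as unknown, and its part in which sequences were listed was not tested.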
